A study of Homo sapiens with 2 samples.

Results

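YAP1 and 9 of its target genes were examined in HCT116, an established human colorectal cancer cell line, on 3′ expression arrays with biotin label. The target genes were CCN1 and CCN2 (formerly CYR61 and CTGF), ANKRD1, AMOTL2, AXL, LATS2, AJUBA, F3 and THBS1. Members were all probe sets that the platform annotation pairs with 1 of these 10 genes alone, which gave 26 probe sets for 10 of the 19775 genes with a probe set of their own. The rule that picks the probe sets uses no measured value, although the gene list was drawn up with earlier results of these data known. The series has 2 arrays of total RNA: HCT116-GFP, labelled as the wild-type line, and HCT116-CPEB4, labelled as over-expressing the RNA-binding protein CPEB4 from a lentivirus. Both were grown in RPMI-1640 with serum, and the sources used here do not state whether HCT116-GFP received a vector or whether either line is a clone. Each group is 1 array, so no difference has a replicate check, no test was run, and "higher" and "lower" compare 2 readings.

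YAP1 is the transcriptional coactivator at the end of the Hippo pathway. When the kinases STK3 and STK4 are active they switch on the kinases LATS1 and LATS2, which phosphorylate YAP1 and keep it out of the nucleus. Unphosphorylated YAP1 enters the nucleus, binds the TEAD transcription factors and switches on genes of matrix signalling, adhesion and growth, among them CCN1, CCN2 and ANKRD1, which are widely used as readouts of YAP activity. In the intestine the pathway is known for its part in regeneration and tumour growth. YAP1 is controlled largely through its phosphorylation and location, which an RNA array does not read.

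TEAD factors bind the hexamer GGAATG, which reads CATTCC on the opposite strand. Both forms were searched in the promoter windows of the RefSeq table for GRCh38.p14, each running from 250 bases before the start site to 50 after it. Of the 10 members, 9 had at least 1 window and 8 of those had a match, over 8 of 12 windows, while 14.0% of all 35116 windows in the table held a match. CCN2 had 3 matches in its window, a number reached by 0.128% of all windows, and ANKRD1 had 2, reached by 1.37%. Neither window of AXL, AMOTL2 or AJUBA had more than 1 match, that of F3 had none, and the match of LATS2 lay past its start site. A match is a description of letters and not of binding.

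Stretches upstream of the start site are shown for YAP1 itself, for the readout genes CCN2 and ANKRD1, and for THBS1, which with CCN2 marks the ends of the range of differences below. Capitals mark the hexamer, and each stretch is written 5′ to 3′ in the direction of the gene.
CCN2, chr6:131951450-131951553, minus strand: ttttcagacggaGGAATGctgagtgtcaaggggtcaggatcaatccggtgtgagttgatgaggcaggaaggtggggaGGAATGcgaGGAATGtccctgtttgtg
ANKRD1, chr10:90921198-90921319, minus strand: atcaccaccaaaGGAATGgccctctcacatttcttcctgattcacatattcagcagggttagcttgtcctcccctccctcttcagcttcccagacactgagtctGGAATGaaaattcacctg
YAP1, chr11:102110273-102110302, plus strand: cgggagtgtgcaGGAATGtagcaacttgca
THBS1, chr15:39581021-39581050, plus strand: gaggaatccccaGGAATGcgagcgcccctt

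The arrays shared an overall scale, with median intensities of 60.6 on HCT116-GFP and 61.1 on HCT116-CPEB4. CPEB4 itself read 731 and 628 at its representative probe set, and its other probe sets were also lower on the array labelled HCT116-CPEB4, so the array does not bear out the label; whether these probe sets can read the introduced sequence is not known here. The direction of every difference below rests on the labels. The ratio of 3′ to 5′ signal of the ACTB control, which grows when RNA is degraded or labelling is short, was 8.23 on HCT116-GFP and 10.3 on the array labelled HCT116-CPEB4, while that of GAPDH was 0.989 and 1.04. Their part in the differences below was not tested. Of 11 colon epithelial markers, 7 and 9 reached the filter described next, with GPA33 and LGALS4 under it on both arrays, and their summed intensity was 87804 and 88743. Of the other cell type lists, fibroblast markers reached it in 1 and 2 of 6 cases (summed intensity 1108 and 1499), endothelial markers in 1 and 1 of 5 (279 and 140) and blood and immune markers in 0 and 1 of 4 (125 and 205). In RNA from whole cultures, fewer cells of a type and less RNA per cell cannot be told apart.

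Intensities are the deposited linear values in arbitrary units, given as HCT116-GFP first and HCT116-CPEB4 second, and every difference is the log2 of the second over the first. A probe set was kept when its higher reading was at least 60.8, the 50th percentile of all values. The kept probe set that was brightest by its mean over both arrays, on the log2 scale, represented its gene. A difference of 2-fold, or 1 on the log2 scale, was counted as called, which is a rule of size. The filter kept 17 of the 26 member probe sets and 9 of the 10 members, and left out ANKRD1.

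No kept member passed 2-fold in either direction. Over all 13704 kept genes, 7.40% passed it, 3.55% higher and 3.85% lower on the array labelled HCT116-CPEB4. A count of 0 among 9 genes is close to what that share gives and does not set the members apart. At their representative probe sets 6 members were higher and 3 lower, with a median of 0.14 and a range from −0.46 (CCN2) to 0.46 (THBS1). With the mean over kept probe sets in place of the representative, 8 were higher and 1 lower. For LATS2 and THBS1 that mean includes a probe set that passed the filter through the array labelled HCT116-CPEB4 alone. The tally is therefore not a separate check of direction. Without probe sets whose suffix marks possible cross-hybridisation the median was 0.03 over 7 members. The median over all kept genes was 0.00, and 50.1% of them lay above 0. The absolute difference had a median of 0.31 over the members and 0.22 over all kept genes. For scale, the differences at the 2 brightest kept probe sets of a gene lay a median of 0.24 apart over the 5 members that have them (from 0.03 for CCN1 to 2.06 for THBS1).

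**Figure D1:**
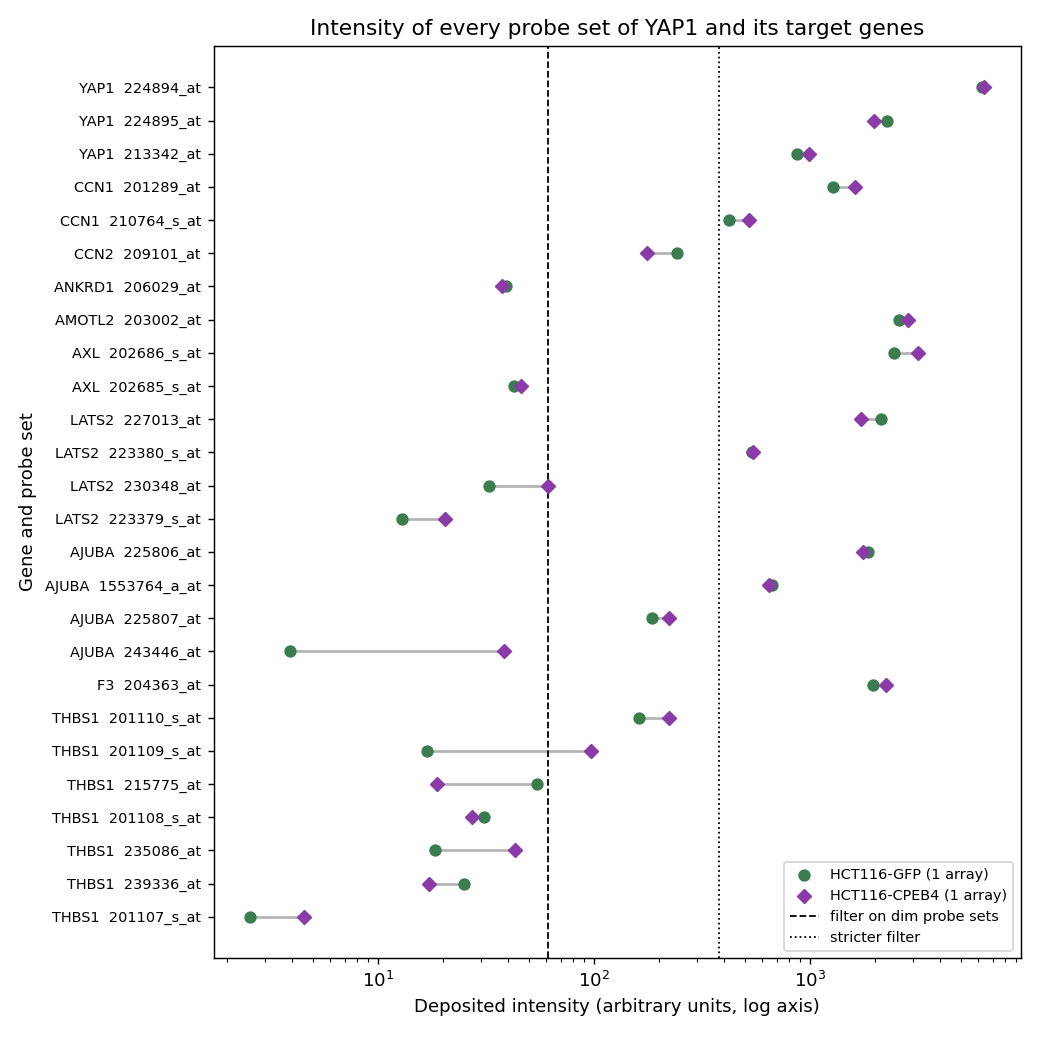
Deposited intensity (log axis, arbitrary units) of all 26 member probe sets, 1 line each, on the HCT116-GFP array (circles) and the HCT116-CPEB4 array (diamonds), with the filters at 60.8 (dashed) and 377 (dotted). The 12 probe sets that reach the stricter filter have nearly coincident readings, and the widest pairs are an AJUBA and a THBS1 probe set in the dim range.

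YAP1, the coactivator, read almost alike on both arrays. Its probe set 224894_at read 6219 and 6360, a difference of 0.03. The other probe sets lay on either side of 0, with 224895_at at 2277 and 1978 (−0.20) and 213342_at at 868 and 992 (0.19). All 3 were bright on both arrays, and 92.2% of kept genes had a difference at least as far from 0 as that of the representative probe set.

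The secreted matrix proteins CCN1 and CCN2, close relatives that bind integrins and are induced by YAP, went in opposite directions. CCN1 read 1279 and 1612 at 201289_at (0.33) and 420 and 520 at 210764_s_at (0.31), so both of its probe sets were higher on the array labelled HCT116-CPEB4, by 1.26-fold and 1.24-fold. CCN2 read 242 and 176 at its single probe set, 209101_at, which is 1.38-fold lower (−0.46). Of all kept genes, 34.2% lay at least as far from 0 as CCN1 and 23.1% as far as CCN2. The CCN2 probe set, unlike both of CCN1, lay under the stricter filter of 377, the 75th percentile of all values, where differences spread more widely.

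THBS1, the secreted adhesive glycoprotein thrombospondin 1, had the widest disagreement between probe sets. Its representative, 201110_s_at, read 162 and 222 (0.46). The other kept probe set, 201109_s_at, read 16.9 and 96.5 (2.52), and so passed the filter through the array labelled HCT116-CPEB4 alone. The 5 remaining probe sets were under the filter on both arrays and ran from −1.53 (215775_at, 54.2 and 18.8) to 1.23 (235086_at, 18.3 and 43.1), with 3 below 0 and 2 above. Between these lay 201108_s_at (−0.18), 239336_at (−0.53) and 201107_s_at (0.82). The gap of 2.06 between the kept probe sets compares with a median gap of 0.27 over the 6520 genes with 2 or more kept probe sets. With the mean of its kept probe sets in place of the representative, THBS1 would be higher by 1.49 and pass 2-fold, so its size is not settled here.

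The cell surface members were both somewhat higher. F3, tissue factor, which starts blood coagulation, read 1949 and 2242 at its single probe set, 204363_at (0.20). AXL, a receptor tyrosine kinase, read 2434 and 3141 at 202686_s_at (0.37, or 1.29-fold), while 202685_s_at was under the filter with 42.6 and 46.0. As many as 54.1% of kept genes lay at least as far from 0 as F3, and 30.7% as far as AXL. Both representative probe sets, like that of CCN1, lay above the stricter filter. There the median absolute difference over all named probe sets was 0.18, so these shares include dimmer genes that spread more widely.

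Among members that feed back on the pathway, the representative probe sets ran from −0.31 to 0.14, without a common direction. LATS2, the kinase that phosphorylates YAP1, read 2122 and 1711 at 227013_at (−0.31), but 536 and 543 at 223380_s_at (0.02). The remaining kept probe set, 230348_at, read 32.7 and 61.2 (0.90) and only just reached the filter, through the array labelled HCT116-CPEB4 alone. The probe set 223379_s_at, with 12.9 and 20.4, did not reach it. With the mean over kept probe sets the LATS2 difference was 0.20 in place of −0.31, so its direction is not settled. AMOTL2, an angiomotin that holds YAP1 at cell junctions, read 2572 and 2843 at its single probe set, 203002_at (0.14). AJUBA, a LIM domain protein that binds LATS kinases, read 1845 and 1757 at 225806_at (−0.07), 663 and 646 at 1553764_a_at (−0.04) and 184 and 222 at 225807_at (0.27), with a mean of 0.05. The AJUBA probe set 243446_at read 3.92 and 38.2, a ratio of 9.73 with both readings under the filter.

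ANKRD1, a nuclear and sarcomeric ankyrin repeat protein and one of the usual YAP readouts, was dim on both arrays. Its single probe set, 206029_at, read 39.1 and 37.5 (−0.06), so neither reading reached the filter and no direction is drawn from it.

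**Figure D2:**
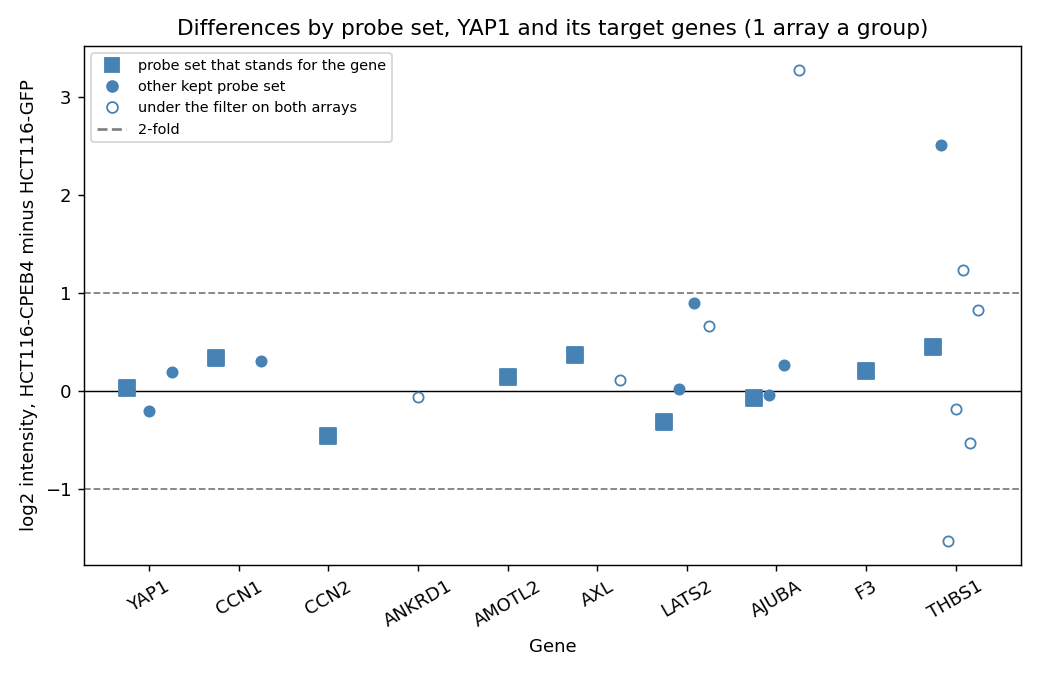
Log2 difference (HCT116-CPEB4 minus HCT116-GFP) of each member probe set by gene; squares represent the gene, filled circles are other kept probe sets, open circles are under the filter on both arrays, and dashed lines mark 2-fold. The squares lie between −0.46 and 0.46, and the points past 2-fold belong to THBS1 and to a dim AJUBA probe set.

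The spread of the member probe sets followed their brightness. At or above the stricter filter, 12 member probe sets ran from −0.31 to 0.37 and 0 passed 2-fold, beside 0.714% of all named probe sets in that class. From the filter up to the stricter one, 1 of 5 passed it, beside 17.8% in the class. Under the filter, 3 of 9 passed it, beside 44.7% in the class, in which the central 90% of differences ran from −2.69 to 2.63. The 12 bright probe sets thus lay within the range from −0.46 to 0.49 that held the central 90% of theirs. Of the other member probe sets, THBS1 201109_s_at (2.52, against an upper end of 1.53 for its class) and AJUBA 243446_at (3.28) lay outside their class's range.

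**Figure D3:**
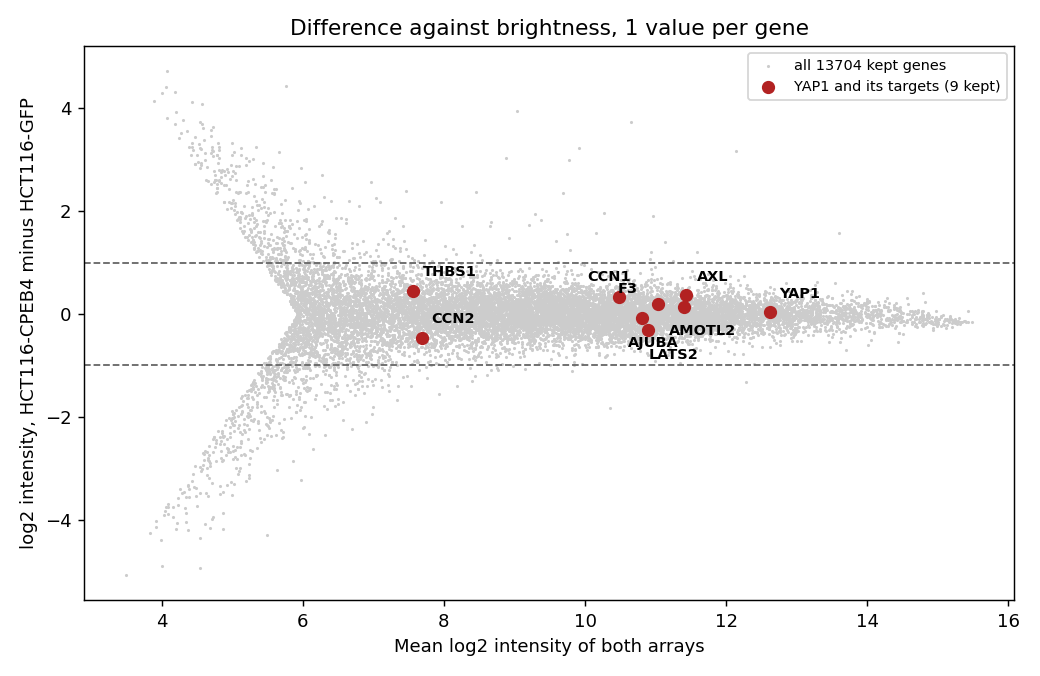
Log2 difference (HCT116-CPEB4 minus HCT116-GFP) against mean log2 intensity for 13704 kept genes (grey) and the 9 kept members (red), with 2-fold dashed. The cloud widens towards low intensity, and every red point lies within 2-fold, with THBS1 and CCN2 at the dim end.

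Of a further 14 YAP target genes that are not among the members, 11 were kept, 4 higher and 7 lower, with 0 past 2-fold in either direction (7.40% over all kept genes) and a median of −0.26, which ran from −0.26 to −0.13 over the alternatives. The extremes were TGFB2, a growth factor, at 86.4 and 142 (0.72), and ARHGEF17 at 80.0 and 44.8 (−0.84), both under the stricter filter. Among the 9 targets that reached the stricter filter, 3 were higher and 6 lower. Under that filter 0.638% of all genes passed 2-fold, so a count of 0 there is close to what that share gives. Over the 11 kept targets the absolute difference had a median of 0.37, beside 0.22 over all kept genes. PTPN14, a phosphatase that binds YAP1, read 1026 and 650 (−0.66), although its 4 kept probe sets ran from −0.72 to 0.40, and MYOF, a membrane repair protein, read 6579 and 5074 (−0.37) with −0.40 at its other kept probe set. In the other direction, CRIM1, a transmembrane protein that binds BMP ligands, read 995 and 1230 (0.31), with its 3 kept probe sets between 0.31 and 0.43. DOCK5 read 1462 and 1757 (0.27), with 5 kept probe sets between 0.25 and 0.86. The probe set at 0.86 (44.0 and 79.7) was kept through the array labelled HCT116-CPEB4 alone, and the others ran up to 0.54. FJX1 read 319 and 482 at its single probe set (0.59). These 5 genes were picked as examples after their values were seen.

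Components of the Hippo pathway itself went both ways, from −1.62 to 0.70. Of 28 listed, 26 were kept, 11 higher and 15 lower, with a median of −0.10 and a median absolute difference of 0.22, the same as over all kept genes. Past 2-fold was 1 of the 26, or 3.85%, beside 7.40% of all kept genes. This was DCHS1, a protocadherin upstream of the kinases, at 78.3 and 25.5 (−1.62), its second reading under the filter. Under the stricter filter, which 22 components reached, 0.638% of all genes passed 2-fold and 0 of the components did. The upstream kinases STK3 (4133 and 4043, −0.03) and STK4 (1789 and 1465, −0.29) and the LATS2 relative LATS1 (815 and 973, 0.26) differed by less than 1.5-fold at their representative probe sets. LIMD1, a LIM protein related to AJUBA, was the highest of the list at 1062 and 1723 (0.70), with 0.06 at its lowest kept probe set. All 3 of its kept probe sets carry a suffix that marks possible cross-hybridisation.

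The YAP1 paralog, the TEAD factors and their competitor VGLL4 were also within 2-fold at their representative probe sets. WWTR1, the YAP1 paralog known as TAZ, was lower at all 3 of its probe sets, with 5321 and 4083 at the representative (−0.38) and a range from −0.38 to −0.24. TEAD1 read 3726 and 3246 (−0.20). Its other kept probe sets read 320 and 242 (−0.41) and, close to the filter, 63.8 and 89.0 (0.48). TEAD3 read 392 and 356 at its single probe set (−0.14). TEAD4 read 929 and 949 (0.03), and its other kept probe set read 661 and 844 (0.35). TEAD2 read 399 and 420 (0.08), with 3.49 at its other kept probe set, which was under the filter on HCT116-GFP. VGLL4, which competes with YAP1 for TEAD factors, read 1437 and 1152 (−0.32), with −0.09 at its other kept probe set. At their representative probe sets, 4 of these 6 genes were lower and 2 higher.

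**Figure D4:**
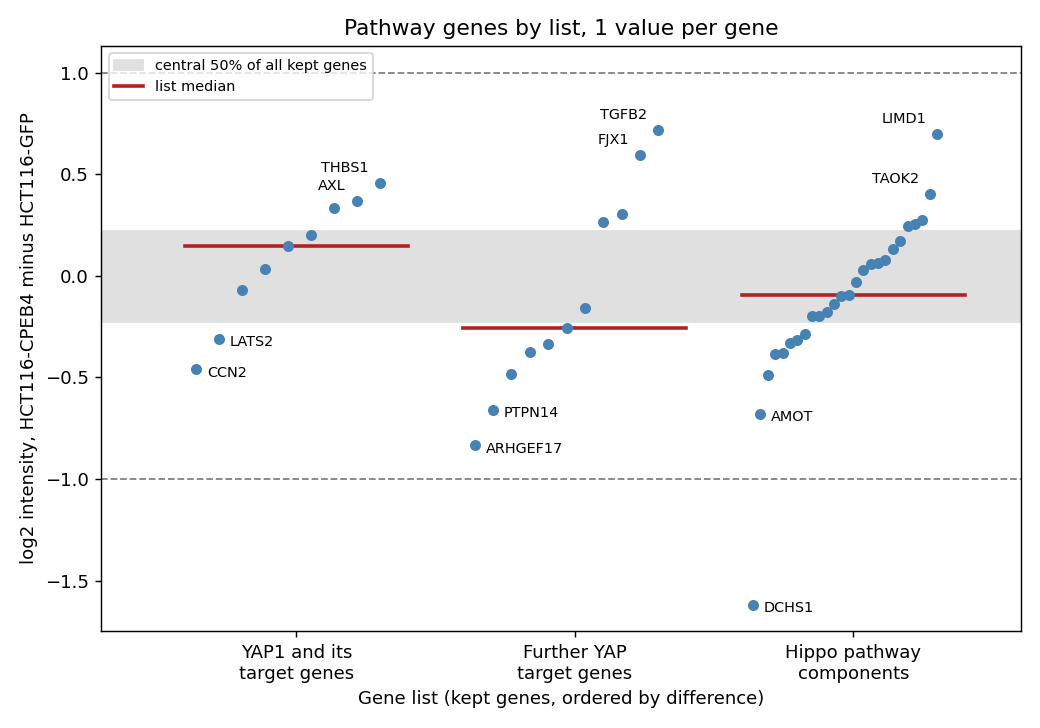
Log2 difference (HCT116-CPEB4 minus HCT116-GFP), 1 point per kept gene ordered within each list, with list medians in red, the central 50% of all kept genes in grey (−0.23 to 0.22) and 2-fold dashed. The medians are 0.14, −0.26 and −0.10, and DCHS1 is the 1 gene past 2-fold.

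**Figure D5:**
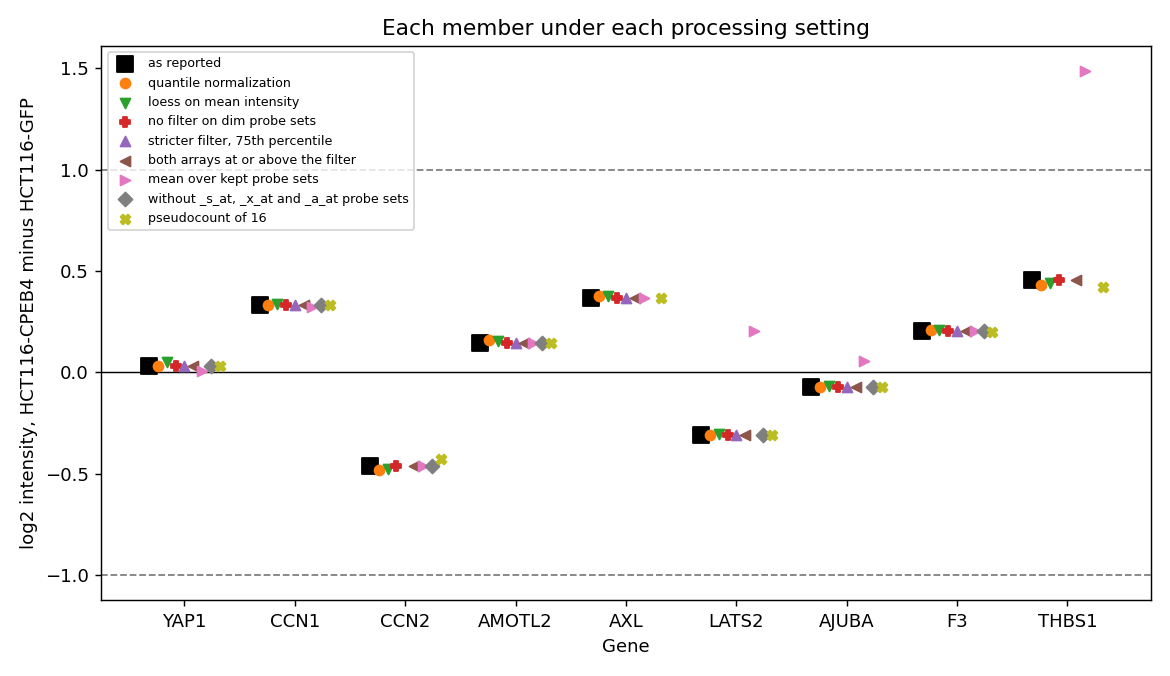
Log2 difference (HCT116-CPEB4 minus HCT116-GFP) of each kept member as reported (black squares) and under each of 8 processing alternatives (coloured marks), with 2-fold dashed. Most marks of a gene coincide; the mean over probe sets moves LATS2 to 0.20, AJUBA to 0.05 and THBS1 to 1.49.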

How the data were processed

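The deposited values are linear intensities of 54675 probe sets on each array; the 2% trimmed mean was 500.1 on both, so the values share a scale. Per the submitters' processing notes Partek was used; the sources used here state neither its role nor the summarisation or background correction. Probe sets were named through the platform annotation, with symbols updated to RefSeq GRCh38.p14 by Entrez identifier: 41097 have 1 gene, 1801 several (left out) and 11777 are unnamed here. The log2 of each deposited intensity was taken without a pseudocount (Python 3.11.15, pandas 2.3.3). The procedure was tested on simulated arrays, with changes planted in bright genes and larger than that of any member's representative probe set. That test therefore does not cover differences as small as those of the members. Every member probe set is named; beside 5 examples picked later, from 2 lists, further YAP targets and Hippo components, the text names the kinases STK3, STK4 and LATS1, WWTR1, the TEAD factors, VGLL4, each list's extremes and genes past 2-fold. NUAK2 is not analysed here. Members and lists were chosen with earlier results of these data known. With 2 arrays no likeness between genes' patterns was computed. No protein sequence was used here.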

Additional observations from a re-analysis of the deposited data

How the results depend on the processing

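The members' differences and the counts and medians of the lists were recomputed under 8 alternatives: quantile normalization, loess, no filter, a filter at the 75th percentile, the filter on both arrays, the mean over kept probe sets, removal of probe sets whose suffix marks possible cross-hybridisation, and a pseudocount of 16. A value was counted as moved when it shifted by more than 0.27, the median gap between probe sets of 1 gene. Of 68 values of single members, 66 shifted by less. The exceptions were LATS2 (0.20) and THBS1 (1.49). Both came from the mean over kept probe sets, which included a probe set kept through the array labelled HCT116-CPEB4 alone. That setting also gave 1 member past 2-fold in place of 0, and 2 further pathway genes in place of 1, TEAD2 and DCHS1. The pathway count was 2 without the filter, with the dim FOXF2 added, and 0 under the stricter filter and with the filter on both arrays, where DCHS1 drops out. It was 1 without cross-hybridising probe sets, but the gene was then WWC1 (1.01), at a probe set that read 166 and 335. The representative probe set of WWC1 in the main setting read 1140 and 1250 (0.13), and its 6 kept probe sets ran from −0.35 to 1.43. The members' median ran from 0.03 to 0.20, that of further targets from −0.26 to −0.13, and that of Hippo components from −0.10 to 0.01, so the sign of the last is not settled. CCN2 and THBS1 have no value under the stricter filter, and AXL and THBS1 none without cross-hybridising probe sets. No paired analysis was possible because each group has 1 array. With 1 array a group, no value here has an error from replicates.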
